A study of Mus musculus with 12 samples.

Results

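The clustered histone genes code for the linker histone H1 and the core histones H2A, H2B, H3 and H4. They were followed here by RNA-seq in mouse embryonic fibroblasts (MEFs) at an early stage of reprogramming. Members were the protein-coding rows of the count table whose symbols start with Hist1h, Hist2h, Hist3h or Hist4h and that had at least 10 counts summed over the 12 libraries. Of 67 such coding rows 64 met this minimum, out of 55573 rows in the table. They comprised 6 H1, 16 H2A, 18 H2B, 11 H3 and 13 H4 genes. By cluster, 53 belonged to Hist1 on chromosome 13, 8 to Hist2 on chromosome 3, 2 to Hist3 on chromosome 11 and 1 to Hist4 on chromosome 6. The other 3 were Hist1h2aa (0 counts), Hist2h2aa1 (1 count) and Hist2h3c1 (0 counts). The transcript model of Gm20634 covers 90.3% of the exonic bases of Hist2h2aa1 and 100% of those of Hist2h3c1 on the same strand, so their reads cannot be assigned by the annotation.

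In these MEFs, on a C57BL/6 background, doxycycline switches on a transgene for Oct4, Sox2, Klf4 and c-Myc (OSKM), the factors that reprogram fibroblasts. The cells came from 3 embryos at E13.5, and each embryo is 1 clone (1 to 3). Each clone was grown for 72 h in medium for induced pluripotent stem cells without doxycycline (MEF), with 2 µM vitamin B12 (MEF+B12), with 1 µg/ml doxycycline (OSKM), or with both (OSKM+B12), which gave 4 groups of 3 libraries. All groups carry the cassette, and only the OSKM groups received doxycycline, so the drug and the factors cannot be told apart. Doses are as labelled, and the methods of the study state a higher concentration of doxycycline. The comparisons ask how the 4 factors and B12, a cofactor of one-carbon metabolism, changed these transcripts.

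Libraries held 56971244 to 79236795 counts, and the members took 0.0205% to 0.0246% of them. Levels are given as CPM (counts scaled to a common library size, with totals corrected by the TMM method). Fold changes are on the log2 scale ± SE, with the adjusted p of edgeR's quasi-likelihood test over 19174 genes and a threshold of 0.05. Pou5f1, which codes for Oct4, was at 19.3, 18.5 and 2.86 CPM in OSKM for clones 1, 2 and 3 and at 20.7, 19.0 and 2.33 CPM in OSKM+B12, against at most 0.468 CPM without doxycycline. By Pou5f1, induction was thus lowest in clone 3. Averaged over both B12 states, Pou5f1 rose with doxycycline by 5.96 ± 0.15, Sox2 by 4.22 ± 0.29 and Myc by 0.88 ± 0.17. Klf4 fell by 0.12 ± 0.03 (adjusted p 0.0452). The fibroblast markers were all present, from a lowest value of 28.8 CPM for S100a4.

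Most histone protein is made during S phase, when new DNA is packed into nucleosomes, and the clustered genes supply it. Their mRNAs are unusual in that they end in a conserved stem-loop bound by the stem-loop binding protein rather than in a poly(A) tail. In cells that leave the cycle or differentiate, some of these genes also give polyadenylated transcripts that run past the stem-loop. The libraries were made from poly(A) RNA, so the values describe the RNA that this selection retained and not the total histone mRNA. Many copies also share sequence, and how reads with several matches were counted is not given in the sources used here.

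The stem-loop is shown because it marks the 3′ end at which most of this RNA escapes poly(A) selection. Among the 50 members with at least 16 bases after the stop codon in a transcript model, 42 (84.0%) held a perfect 16-base stem-loop within 100 bases of the stop codon, 22 to 59 bases after it. Only 3 of 20913 other coding genes (0.0143%) held one, namely Eif2ak4, H2afx and H2bfm. The other 14 members have models that stop before that point. There were 6 forms, given 5′ to 3′ as DNA on GRCm38 with the loop in capitals and 1 example gene each.
Hist1h1c (chr13:23739512-23739527, + strand): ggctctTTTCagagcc
Hist1h4c (chr13:23698089-23698104, - strand): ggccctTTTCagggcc
Hist1h1t (chr13:23696525-23696540, + strand): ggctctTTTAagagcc
Hist1h4i (chr13:22040966-22040981, - strand): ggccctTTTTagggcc
Hist1h4b (chr13:23757366-23757381, + strand): ggtcctTTTCaggacc
Hist2h2ac (chr3:96220418-96220433, - strand): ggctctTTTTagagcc
The first form was found in 24 members, of which 3 were H1, 9 H2A, 8 H2B and 4 H3 genes. The forms of Hist1h4c, Hist1h4i and Hist1h4b were found only in H4 genes, in 7, 2 and 2 members. The form of Hist1h1t was found in 6 members (1 H1, 2 H2B and 3 H3) and that of Hist2h2ac in 1. No stem differed between the H1, H2A, H2B and H3 forms, whose loops varied in the last base.

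Promoter sequence was looked at because H2A and H2B genes lie head to head and share the stretch between them. RefSeq windows (GRCm38.p6, 250 bases before to 50 after the start) were matched for 59 of the 64 members. Motifs were searched on both strands. CCAAT was present in all 47 windows of H1, H2A, H2B and H3 genes but in 3 of 12 H4 windows (25.0%), against 37.4% of all 32817 windows. TATAAA was present in 33 of 59 windows (55.9%) against 13.6% of all windows. The octamer ATTTGCAT was present in 6 H2A and 6 H2B windows (37.5% of 32) and in 0 of the other members, against 1.74% of all windows. Windows of head-to-head neighbours overlap, so a motif can count for both. The stretches from -210 to -25 are given for Hist1h1c, which fell with induction, for Hist1h2ac and Hist1h2ap, which rose with B12, and for Hist1h4i, the highest H4 gene. Capitals mark these 3 motifs on either strand.
Hist1h1c (chr13:23738597-23738782, + strand): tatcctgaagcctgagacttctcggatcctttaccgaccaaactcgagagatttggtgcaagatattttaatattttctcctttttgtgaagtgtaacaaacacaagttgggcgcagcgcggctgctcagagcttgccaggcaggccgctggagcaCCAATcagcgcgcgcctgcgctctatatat
Hist1h2ac (chr13:23683984-23684169, - strand): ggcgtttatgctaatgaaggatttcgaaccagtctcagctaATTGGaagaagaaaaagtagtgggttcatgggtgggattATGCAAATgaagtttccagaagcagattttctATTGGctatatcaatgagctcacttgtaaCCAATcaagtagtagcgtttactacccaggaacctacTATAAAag
Hist1h2ap (chr13:21833500-21833685, - strand): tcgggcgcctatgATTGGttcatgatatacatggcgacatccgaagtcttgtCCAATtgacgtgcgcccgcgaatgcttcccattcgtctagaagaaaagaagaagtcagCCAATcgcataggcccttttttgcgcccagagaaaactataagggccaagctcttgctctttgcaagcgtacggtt
Hist1h4i (chr13:22041387-22041572, - strand): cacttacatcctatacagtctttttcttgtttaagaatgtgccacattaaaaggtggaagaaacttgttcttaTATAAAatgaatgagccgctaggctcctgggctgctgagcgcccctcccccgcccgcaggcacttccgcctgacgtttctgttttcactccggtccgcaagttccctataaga
Positions count from the RefSeq start as 0. Hist1h2ac had CCAAT at -169, -98 and -69, the octamer at -130 and TATAAA at -32. Hist1h2ap had CCAAT at -197, -158 and -100, without octamer or TATAAA. Its window matched that of Hist1h2ao over 200 of 200 bases at a shift of 100, and Hist1h2ao had CCAAT at -97, -58 and 0. Distances thus depend on the RefSeq start chosen. The GENCODE model of Hist1h2ap starts at 21833507, so the last bases of its stretch lie inside that model. Hist1h1c had 1 CCAAT, at -54, and Hist1h4i only a TATAAA at -137. The windows of Hist1h2bq and Hist1h2br, the neighbours of Hist1h2ao and Hist1h2ap, were identical over 300 of 300 bases.

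Transcript models and shared sequence divide the members. In 27 members the model is spliced, runs over 100 bases past the stem-loop or, where no stem-loop was found (Hist1h4a and Hist2h2be), over 100 bases past the stop codon, and these held 57.1% of the summed member CPM. The 37 with a short model held 42.9%. In 39 members at least 50% of the 31-base words of the transcripts also occur in another gene, and these held 51.3% of the member CPM. The median share of such words was 3.73% for H1, 74.9% for H2A, 57.4% for H2B, 61.9% for H3 and 47.9% for H4 genes. The counts of Hist1h2ao (17521) and Hist1h2ap (17526) differed by at most 6 in any library, and those of Hist1h2bq (3293) and Hist1h2br (3305) by at most 7. Each of these pairs is therefore 1 measurement rather than 2.

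**Figure D1:**
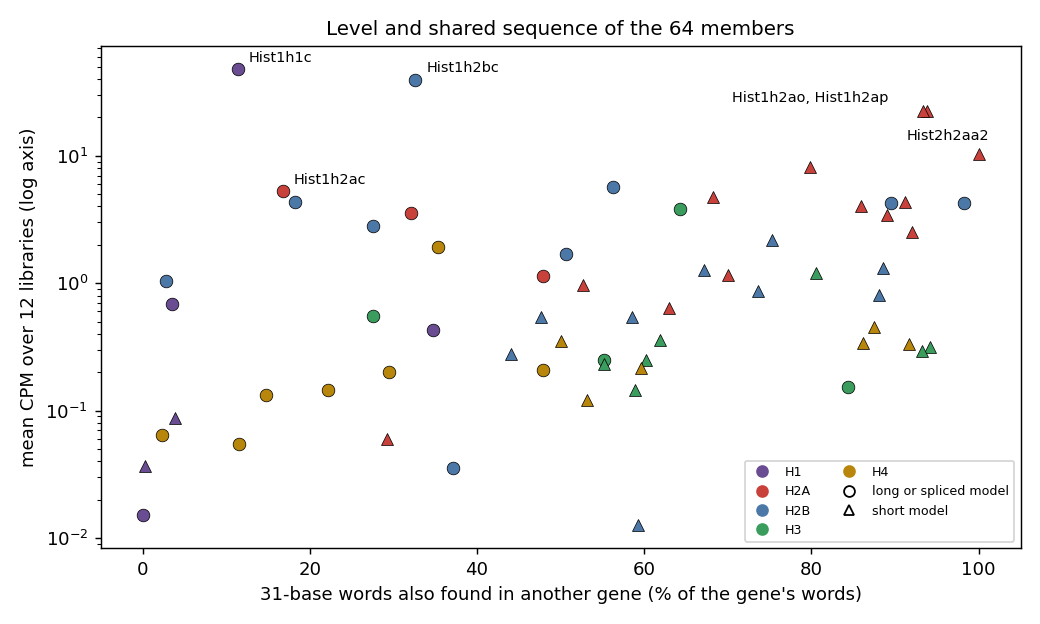
Mean CPM over 12 libraries (y axis, log scale) against the percentage of each gene's 31-base words found in another gene (x axis) for the 64 members, coloured by histone type, with circles for long or spliced transcript models and triangles for short ones. Hist1h1c and Hist1h2bc are high with few shared words, while Hist1h2ao and Hist1h2ap are high with most words shared.

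H2A genes gave 41.8% of the member CPM, H2B 31.3%, H1 21.6%, H3 3.31% and H4 1.99%. These shares, and the sums given below, count both rows of each near-equal pair, so they may overstate H2A and H2B. The Hist1 cluster gave 90.8%. Because CPM grows with exon length, levels between genes are given per kilobase of annotated exon. That length includes long 3′ models whose use here was not measured, and shared reads affect the counts, so the order is approximate. On this scale Hist1h2ao (46.9) and Hist1h2ap (46.7 CPM per kilobase) were highest, followed by Hist1h2bc (34.3), Hist1h1c (30.9), Hist2h2aa2 (19.5) and Hist1h2ag (16.8). In CPM, 28 of the 64 members averaged at least 1.

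Among the 6 clustered H1 genes, Hist1h1c was the only one above 1 CPM. It was at 49.4, 59.3 and 49.2 CPM in MEF for clones 1, 2 and 3, 48.4, 56.7 and 47.9 in MEF+B12, 37.7, 45.4 and 45.0 in OSKM, with 44.6, 46.8 and 47.6 in OSKM+B12. The OSKM libraries all lay below the MEF libraries. Hist1h1d and Hist1h1e averaged 0.685 and 0.431 CPM. Part of the Hist1h1e model (25.7%) is overlapped on the same strand by Hist1h2be and Gm11398. Hist1h1a, Hist1h1b and the testis gene Hist1h1t were too low to test.

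Of the H2A genes, 13 of 16 averaged over 1 CPM and Hist1h2ap, Hist1h2ao, Hist2h2aa2 and Hist1h2ag held 66.5% of the H2A total. Hist1h2ao and Hist1h2ap, with near-equal counts, averaged 22.5 CPM each, and both enter this total. The summed H2A level was 97.9, 86.5 and 93.3 CPM in MEF, 111.3, 95.5 and 100.5 in MEF+B12, 90.01, 74.8 and 81.2 in OSKM, with 109.9, 102.0 and 101.5 in OSKM+B12. All OSKM+B12 libraries were above all OSKM libraries, whereas MEF and MEF+B12 overlapped, although within clones 1, 2 and 3 the uninduced cells were also higher with B12, by 0.19, 0.14 and 0.11 on a log2 scale. Of the H2B genes Hist1h2bc, whose 2-exon model extends past the intron, averaged 39.6 CPM and the next, Hist1h2bg, 5.69. Summed H2B was 75.3 ± 10.6 CPM in uninduced cells and 71.9 ± 7.73 with B12 (SD, n = 3), and 67.5 ± 6.14 in induced cells and 71.4 ± 7.17 with B12. All 4 groups overlapped.

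The nucleosome core genes for H3 and H4 were low. Hist2h3c2 (3.83 CPM) and Hist2h3b (1.19) led the H3 genes and Hist1h4i (1.93) the H4 genes, while the other H3 and H4 members averaged 0.0551 to 0.549 CPM. Summed H3 was 7.25 ± 1.45 CPM for MEF, 7.99 ± 1.14 for MEF+B12, 7.47 ± 1.41 for OSKM and 7.56 ± 0.938 for OSKM+B12 (SD, n = 3). For H4 it was 4.27 ± 0.499, 5.57 ± 0.455, 3.85 ± 0.843 and 4.49 ± 0.373. The 3 MEF+B12 libraries had the highest H4 sums of all 12. In bulk RNA, fewer cells expressing a gene and less RNA per cell cannot be told apart.

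**Figure D2:**
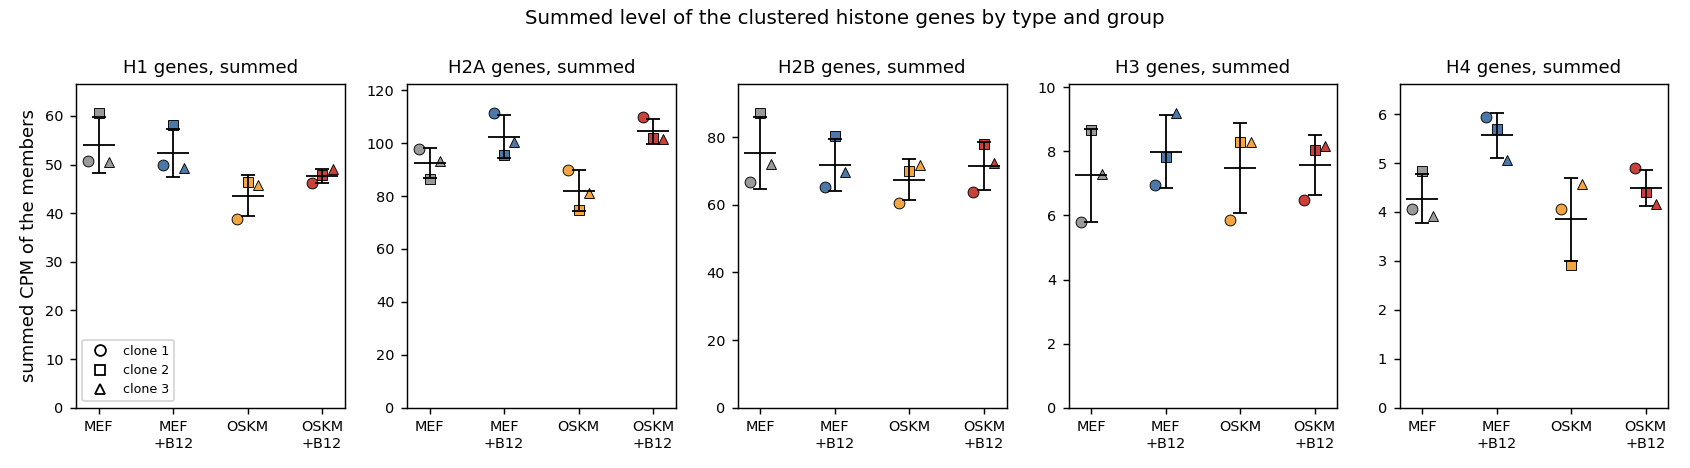
Summed CPM of the members of each histone type (y axis, from 0) in the 4 groups (x axis), with a symbol for each clone, bars at the mean and whiskers of 1 SD (n = 3). H2A in OSKM+B12 (101.5 to 109.9 CPM) lies above OSKM (74.8 to 90.01), while H2B overlaps in all groups. The H2A sum counts both Hist1h2ao and Hist1h2ap, whose counts are near-equal.

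Filtering on low counts left 55 members for the tests, of which 3 were H1, 15 H2A, 16 H2B, 11 H3 and 10 H4 genes. The 9 left out were Hist1h1a, Hist1h1b, Hist1h1t, Hist1h4f, Hist2h2ab, Hist2h2bb, Hist2h4, Hist3h2ba and Hist4h4, with 10 to 95 counts in all.

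B12 raised a set of H2A genes. Averaged over uninduced and induced cells, 6 of 55 tested members rose and 0 fell, where 3.46% of all genes tested rose and 0.381% fell. All 6 were H2A genes of the Hist1 cluster, which code for the canonical H2A protein of S phase. They were Hist1h2ao, Hist1h2ap, Hist1h2ac, Hist1h2ah, Hist1h2ag and Hist1h2ad, and they rose by 0.27 to 0.33. Each was higher with B12 in 3 of 3 clones. Hist1h2ao and Hist1h2ap have near-equal counts, and 5 members or sums passed when such rows were added together.

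Hist1h2ao (chr13:21810465-21810944, + strand, 1 exon, GRCm38) was at 23.8, 18.7 and 21.6 CPM in MEF for clones 1, 2 and 3, 27.4, 22.8 and 23.6 in MEF+B12, 20.3, 17.0 and 18.5 in OSKM, with 27.7, 24.2 and 24.3 in OSKM+B12. All induced libraries with B12 were above those without it, while the uninduced groups overlapped, with each clone higher with B12 (log2 differences of 0.20, 0.28 and 0.13). Its average B12 difference was 0.33 ± 0.04 (adjusted p 0.000564), and clones 1, 2 and 3 gave 0.32, 0.39 and 0.26. Hist1h2ap (chr13:21833026-21833507, - strand), with near-equal counts, gave 0.32 ± 0.04 (adjusted p 0.000564).

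Hist1h2ag (chr13:22042460-22042944, - strand) was at 8.0, 7.21 and 7.84 CPM in MEF, 9.88, 7.63 and 8.71 in MEF+B12, 8.19, 5.84 and 7.19 in OSKM, with 9.92, 8.36 and 8.94 in OSKM+B12. The OSKM groups did not overlap and the MEF groups did, although each uninduced clone was higher with B12 (by 0.30, 0.08 and 0.15 in log2). It differed by 0.27 ± 0.05 (adjusted p 0.0164). Hist1h2ad (chr13:23574381-23574952, + strand) and Hist1h2ah (chr13:22035164-22035568, - strand) gave 0.27 ± 0.06 (adjusted p 0.0378) and 0.29 ± 0.06 (adjusted p 0.0326). In these genes 68.3% (Hist1h2ad) to 93.8% (Hist1h2ao) of 31-base words are shared, so reads may have moved between copies.

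Hist1h2ac (chr13:23681467-23683948, - strand) differs from these in its sequence. Only 16.8% of its words are shared, with 15 other members among the genes that share them, and its model runs 2010 bases past the stem-loop. Where its reads fall along this model was not measured, so reads shared with other copies may make up more of its counts. In every library its counts were within 19.2% of those of Hist1h2ad. It was at 5.16, 4.68 and 5.12 CPM in MEF, 6.47, 5.10 and 6.19 in MEF+B12, 5.01, 3.84 and 4.69 in OSKM, with 5.84, 5.66 and 5.94 in OSKM+B12. Again the OSKM groups were separate and the MEF groups overlapped, with uninduced clones higher with B12 by 0.33, 0.12 and 0.27 in log2. It rose by 0.31 ± 0.06 (adjusted p 0.0192), and it was the only called gene among the 18 tested members with under 50% shared words. A small part of its model (4.35%) is overlapped by Gm24991. Of the 6 genes, Hist1h2ac and Hist1h2ah hold the octamer.

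The other types were described by counts and medians. Many members share sequence, and both rows of each near-equal pair are counted, so the genes are not separate observations. With B12, 12 of 15 H2A genes had a positive average difference, each in 3 of 3 clones, with a median of 0.29. For H2B 11 of 16 were positive, 3 of them in 3 of 3 clones, and the median was 0.04. H4 had 9 of 10 positive, 8 in 3 of 3 clones, with a median of 0.31 at low counts, and 0 passed with 1 at an unadjusted p under 0.05. H3 had 10 of 11 positive, 2 of them in 3 of 3 clones, with a median of 0.18. H1 had 3 of 3 positive, 2 of them in 3 of 3 clones, with a median of 0.22. Over all 55 members the median was 0.20, against -0.01 over all genes tested. Members with short models had a median of 0.21 and those with long or spliced models 0.06. Model and type go together, with long or spliced models in 3 of 16 H2A and 9 of 18 H2B genes, and they were not separated. The H2A genes without a positive value were Hist2h2aa2 (-0.05 ± 0.06, adjusted p 0.747), Hist3h2a and Hist2h2ac, the members of that type outside the Hist1 cluster that could be tested.

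**Figure D3:**
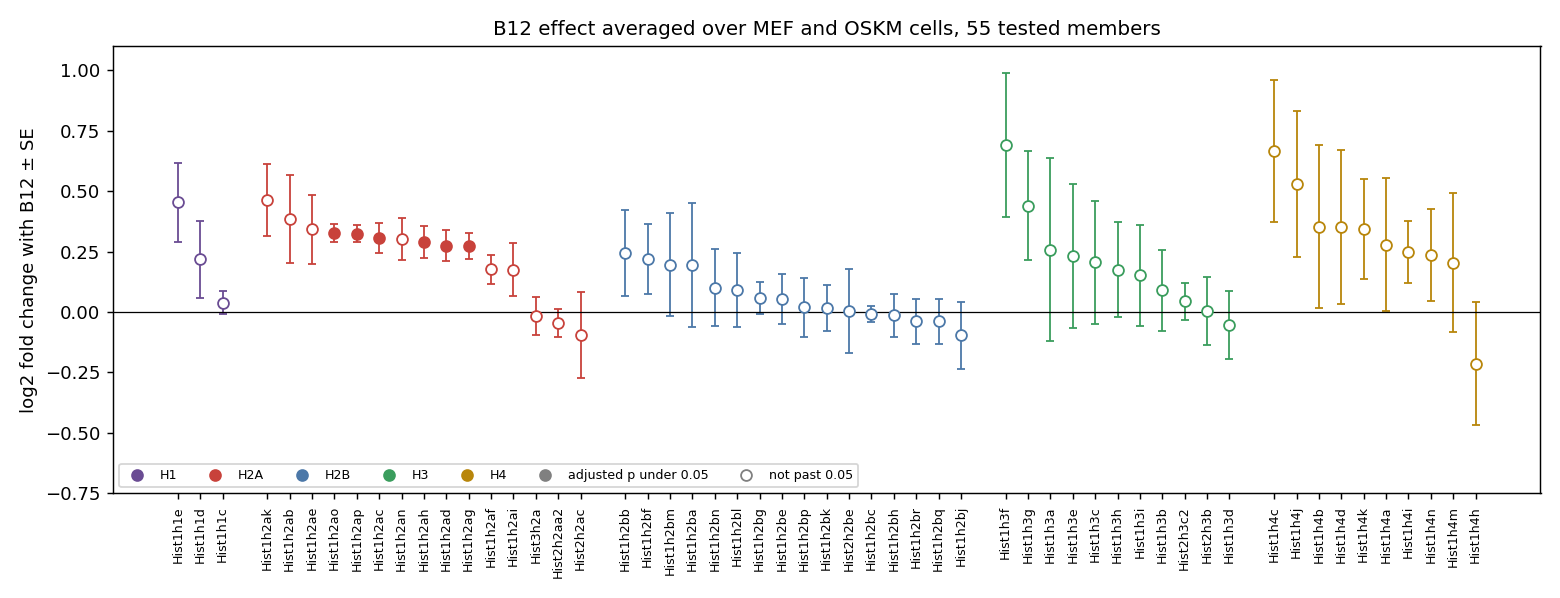
Log2 fold change with B12, averaged over MEF and OSKM cells (y axis), for the 55 tested members ordered by type (x axis), with whiskers of 1 SE and filled points for an adjusted p under 0.05. The 6 filled points are H2A genes between 0.27 and 0.33, and the H2B genes lie around 0.

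The number of calls changed with the clones left in the fit, and fits without a clone have fewer libraries. Without clone 1, clone 2 or clone 3 there were 2, 0 and 2 of the tested members called. Hist1h2ao was then 0.33, 0.29 and 0.37. Across all alternatives the values of the 6 genes lay between 0.26 (Hist1h2ad) and 0.37 (Hist1h2ao). The share of all genes called in these fits is not given here. Without the OSKM+B12 library of clone 3, which had the highest level of RNAs lacking a poly(A) tail, 3 were called, namely Hist1h2ao, Hist1h2ap and Hist1h2ag. The values of the 6 genes were then 0.28 (Hist1h2ad) to 0.34 (Hist1h2ao), each slightly above its value in the main fit. A model without the clone block called 0, and Hist1h2ao and Hist1h2ap had an adjusted p of 0.113 there.

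Within induced cells alone 2 of 55 members rose with B12, Hist1h2ao (0.45 ± 0.05) and Hist1h2ap (0.45 ± 0.05), both with an adjusted p of 0.0032, where 1.05% of all genes rose. Summing both rows leaves 1 call. The next were Hist1h2ag (0.36 ± 0.08, adjusted p 0.0529), Hist1h2ah (0.42 ± 0.09, 0.0620), Hist1h2ad (0.40 ± 0.09, 0.0687) and Hist1h2ac (0.37 ± 0.09, 0.0953), and DESeq2 called the first 3 of these as well, 5 in all. Hist1h2ak (1.15 CPM) had the highest value among H2A genes, 0.73 ± 0.21 (adjusted p 0.211). Without clone 2 or clone 3 there were 0 calls, and Hist1h2ao was then 0.42 and 0.49. The log2 difference of the summed H2A level was 0.29, 0.45 and 0.32 for clones 1, 2 and 3, and that of all members 0.22, 0.25 and 0.15, with no test on sums. Both Hist1h2ao and Hist1h2ap enter these sums.

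Within uninduced cells 0 of 55 members passed in edgeR or DESeq2, where 1.38% of all genes changed. An unadjusted p under 0.05 was reached by 6 of 55 members and by 1972 of all 19174 genes tested. Hist1h2ao gave 0.20 ± 0.05 (adjusted p 0.0939) and the H2A median was 0.16. Fitted to the MEF groups alone, 2 passed, Hist1h2ao and Hist1h2ap. H4 genes had a median of 0.42 here, with 10 of 10 positive and 2 at an unadjusted p under 0.05, and H2B genes a median of -0.06. The B12 difference in OSKM minus that in MEF passed for 0 members in edgeR and DESeq2 and for 0% of all genes. At an unadjusted p under 0.05 were 3 members (Hist1h2ap, Hist1h2ao and Hist1h2bf) and 273 of 19174 genes. For Hist1h2ap it was 0.25 ± 0.07 (adjusted p 1), so a difference between states was not shown.

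Head-to-head neighbours allow an H2A gene to be set beside an H2B gene that starts 176 to 302 bases away. There were 11 such H2A/H2B pairs, and Hist1h2bh and Hist1h3f start 660 bases apart. In the average B12 difference the H2A gene was above its H2B partner in 10 of 11 pairs, in 7 of them in 3 of 3 clones. The exception was Hist2h2ac and Hist2h2be. Several pairs share sequence and libraries, so they are not independent, and the difference within a pair was not tested.

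Hist1h2bc (chr13:23684199-23692908, + strand), the partner of Hist1h2ac, was at 37.1, 46.8 and 40.0 CPM in MEF, 35.8, 45.2 and 39.0 in MEF+B12, 34.8, 40.5 and 38.9 in OSKM, with 34.0, 43.4 and 39.6 in OSKM+B12. Its groups overlapped, with clone 2 highest in each. It differed with B12 by -0.01 ± 0.03 (adjusted p 0.943), against 0.31 for Hist1h2ac, a gap of 0.31 in each of the 3 clones. Shared words made up 32.6% of Hist1h2bc and 16.8% of Hist1h2ac. Hist1h2bq gave -0.04 ± 0.09 against 0.33 for Hist1h2ao, and Hist1h2bj -0.10 ± 0.14 against 0.27 for Hist1h2ag. In contrast, Hist1h2bf (0.22 ± 0.14) was near its partner Hist1h2ad. With induction the H2A gene was above in 4 of 11 pairs.

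**Figure D4:**
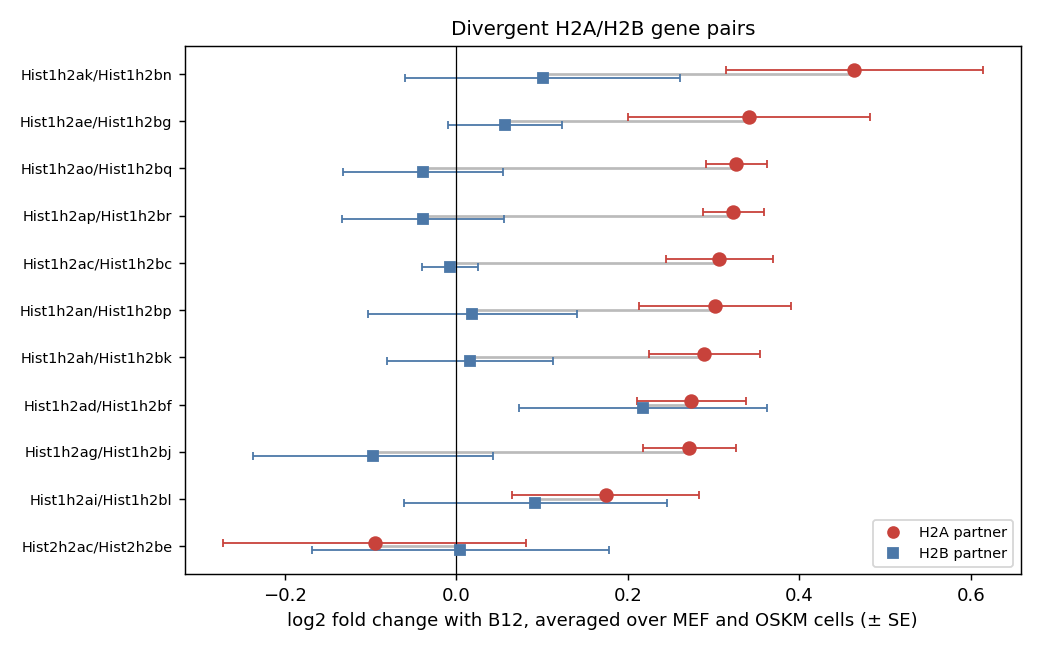
Log2 fold change with B12, averaged over MEF and OSKM cells (x axis), of the H2A gene (red circles) and the H2B gene (blue squares) of each of 11 head-to-head pairs (y axis), with whiskers of 1 SE. The H2A gene lies to the right in 10 of 11 pairs.

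**Figure D5:**
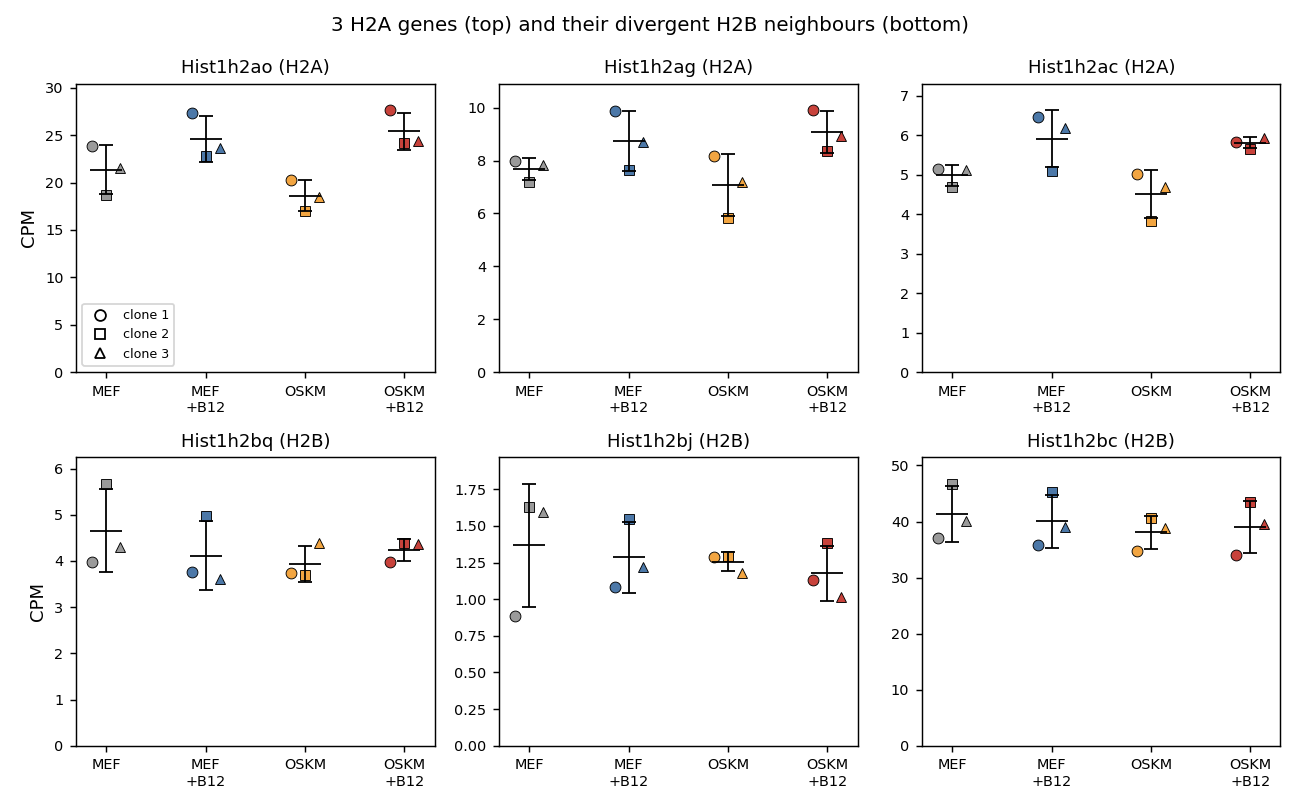
CPM (y axes, from 0) of Hist1h2ao, Hist1h2ag and Hist1h2ac (top) and of their neighbours Hist1h2bq, Hist1h2bj and Hist1h2bc (bottom) in the 4 groups (x axes), with a symbol for each clone, bars at the mean and whiskers of 1 SD (n = 3). OSKM and OSKM+B12 are separate in the top row and overlap in the bottom row.

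Induction lowered 1 member. Averaged over both B12 states, Hist1h1c (chr13:23738808-23740367, + strand, 1 exon) fell by 0.22 ± 0.05 (adjusted p 0.0242), and 0 members rose, where 5.26% of all genes fell and 4.46% rose. Clones 1, 2 and 3 gave -0.25, -0.33 and -0.07. Pou5f1 was lowest in clone 3 and highest in clone 1, and a link with these values was not tested. Only 11.4% of its words are shared, and its model runs 840 bases past the stem-loop. Hist1h1d (-0.31 ± 0.16, adjusted p 0.239) and Hist1h1e (-0.39 ± 0.16, adjusted p 0.153) did not pass. Without clone 1 or clone 2, and without the clone block, 0 members were called, and without clone 3 there were 2, the other being Hist1h2bl (-0.53, adjusted p 0.0369).

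Without B12, 0 of 55 members passed in edgeR, where 0.073% of all genes passed, and DESeq2 called Hist1h1c (-0.30, adjusted p 0.0128 against 0.159 in edgeR). An unadjusted p under 0.05 was reached by 10 of 55 members and by 3641 of all 19174 genes tested. The member median was -0.19, with 6 of 55 positive, and the 15 tested H2A genes all had negative values (median -0.20). With B12, 0 passed in edgeR or DESeq2, where 0.104% of all genes passed. Here 4 members, all H4 genes, and 2854 of 19174 genes had an unadjusted p under 0.05. The member median was then -0.03, and the H2A median 0.02. These 2 comparisons have separate controls. The H4 genes had a median of -0.62 with B12, and Hist1h4h gave -1.04 ± 0.37 (adjusted p 0.228) at a mean of 0.349 CPM. The summed level of all members was 233 ± 12.5 CPM for MEF and 240.3 ± 6.85 for MEF+B12, against 204 ± 6.55 for OSKM and 236 ± 4.55 for OSKM+B12 (SD, n = 3).

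The response to induction did not differ between clones past the threshold for any tested member in edgeR, with 4 at an unadjusted p under 0.05, where 2.15% of all genes passed. The lowest adjusted p was 0.179, for Hist1h2br. DESeq2 was not run on this test.

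The other genes of histone supply were read from fixed lists. Factors of histone 3′ end formation, such as the scaffold protein gene Sympk (B12 average 0.04 ± 0.03, adjusted p 0.546), had 20 members tested and 0 called in any comparison, with at most 4 at an unadjusted p under 0.05. Of 13 genes of the histone locus body and its control, Ccne2, a cyclin of S phase entry, rose with induction (0.23 ± 0.05, adjusted p 0.0255) and E2f1, a transcription factor of the same step, fell by 0.16 ± 0.04 (adjusted p 0.0357). Of all genes tested, 4.46% rose and 5.26% fell with induction. None of the 13 passed with B12 in the average, with 2 at an unadjusted p under 0.05.

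Of 24 S-phase genes 4 rose with B12 in the average, where 3.46% of all genes rose. They were Fen1, a flap nuclease (0.25 ± 0.04, adjusted p 0.00661), the helicase subunit gene Mcm5 (0.24 ± 0.03, 0.00090), Pcna, the sliding clamp (0.17 ± 0.03, 0.0105), and the licensing factor gene Cdt1 (0.14 ± 0.03, 0.0399). Their list median was 0.10, against -0.01 over all genes. Mcm5 also passed in induced cells alone (0.24 ± 0.04, adjusted p 0.0220) and in uninduced cells alone (0.24 ± 0.04, adjusted p 0.0174). With induction Ccne2, Prim1 and Mcm7 rose, where 4.46% of all genes did. Of 20 genes of G2 and mitosis 0 passed with B12 (4 at an unadjusted p under 0.05) or with induction (1). Whether the S-phase values account for the H2A values was not tested.

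Histone genes outside the clusters are mostly not tied to S phase. Of 11 tested, H1f0, a linker histone of resting cells, fell with B12 by 0.16 ± 0.03 (adjusted p 0.0140), and H2afj fell with induction by 0.19 ± 0.05 (adjusted p 0.0421). Of all genes tested, 0.381% fell with B12 and 5.26% with induction. Of 22 histone chaperones and related factors, Nasp, a carrier of H3 and H4, rose with B12 (0.13 ± 0.03, adjusted p 0.0399) and with induction (0.12 ± 0.03, 0.0384), and Nap1l1, a carrier of H2A and H2B, rose with induction (0.14 ± 0.04, 0.0367). Among all genes tested, 3.46% rose with B12 and 4.46% with induction, so so few calls do not set the chaperones apart.

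Other features of the libraries moved with the groups. All 11 macrophage markers rose with B12 in the average (median 0.57), where 3.46% of all genes rose. Mrc1 led them (0.86 ± 0.08, adjusted p 0.000206). The summed level of the 11 ranged from 1390 to 2618 CPM in MEF, 2118 to 3455 in MEF+B12, 1393 to 2389 in OSKM and 2150.5 to 2754 in OSKM+B12. The fibroblast list had 0 of 10 called with B12 (3 at an unadjusted p under 0.05) and 4 lower with induction, where 5.26% of all genes fell. Of 4 endothelial markers tested, Esam, Tek and Cdh5 rose with induction (1.22 to 1.39), where 4.46% of all genes rose, and 0 passed with B12. Among 14 RNAs without a poly(A) tail, 3 had enough counts to be tested. Of these, Rn7s1 and Rn7s2 rose with B12 in induced cells (near-identical copies, 0.91 ± 0.19 each, adjusted p 0.0494), where 1.05% of all genes rose. The third, Rn7sk, rose with induction averaged over both B12 states (0.53 ± 0.15, adjusted p 0.0441). Over 14 such RNAs the summed level was 8.59, 15.4 and 11.4 CPM in OSKM and 16.4, 15.2 and 23.8 in OSKM+B12 for clones 1, 2 and 3, and 8.88, 12.2 and 14.9 in MEF against 8.58, 11.1 and 13.4 in MEF+B12. The part of these RNAs and of macrophages in the H2A values and in the induction values of the members was not tested.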

How the data were processed

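RNA was measured in 12 libraries of 4 groups, grouped by their labels. The authors prepared stranded libraries from poly(A) RNA, aligned read pairs with STAR (version 2.5.2 in the submitters' processing notes) to mm10 and counted them per gene with featureCounts. The deposited values are raw counts, in which flow cells of a library were added. Depth (56971244 to 79236795 counts) sets the counting precision, and counts carry no molecular identifiers. Symbols and models came from GENCODE M21 (GRCm38). edgeR 4.0.16 (R 4.3.3) tested counts with filterByExpr, TMM, and group and clone as terms, with Benjamini-Hochberg adjustment over 19174 genes. Log2 CPM used a prior count of 2. Clone entered as a block, since every group has a library from each embryo. Deviations of same-clone libraries correlated at 0.270 to 0.687 (18 pairs), against -0.510 to 0.170 between libraries of different clones and groups (36 pairs). Scripts were tested on simulated data. DESeq2 1.42.0, other scalings and filters, fits without the block and without each clone were alternatives.

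The members and lists were chosen with earlier results of these data known. Named members were the 4 of highest mean CPM in each type, up to 10 past the threshold in each comparison, and the 3 highest and lowest fold changes at a mean log2 CPM of at least 0. Listed genes were up to 4 past the threshold, otherwise the 2 highest. Hist1h2bf, Hist3h2a, Hist2h2ac, Hist1h4a, Hist1h4c, Hist1h4b, Hist1h1t, Hist1h1a, Hist1h3f and the untested members are named outside this rule, after their values were seen.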

Additional observations from a re-analysis of the deposited data

Results flagged for a closer look

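In uninduced cells the summed H1 level moved with B12 by log2 differences of -0.02, -0.06 and -0.04 in clones 1, 2 and 3, and in induced cells by 0.25, 0.05 and 0.10. The difference between the states was 0.173, and every clone of one state moved opposite to every clone of the other. For the summed H2B level the values were -0.03, -0.12 and -0.05 without induction and 0.08, 0.16 and 0.01 with it, a difference of 0.145. Neither difference was tested on the sums. In the test by gene, Hist1h1c, which holds most of the H1 sum, had 0.17 ± 0.09 (adjusted p 1 in edgeR). Groups of 3 libraries were not searched for outlying samples.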

How the results depend on the processing

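Each count and median of the members was computed with other choices of tool, scaling, filter, libraries, block and shared words, and under 2 alternatives chosen after seeing the data (near-equal rows summed, and the OSKM+B12 library of clone 3 left out). Induction without B12 had 0 members called, against 1 with DESeq2, 1 without a filter and 0 to 1 when a clone or library was left out. For induction averaged over B12 states the count of 1 became 0 without the replicate block and 0 to 2 without a clone. For B12 in OSKM the 2 became 5 with DESeq2, 5 with library totals, 0 without the replicate block, 0 to 2 without a clone, 1 with near-equal rows summed and 0 among members with under 50% shared words. For B12 in MEF 2 were called in a fit to those groups alone. For the B12 average the 6 became 0 without the replicate block, 0 to 6 without a clone or library, 3 without the OSKM+B12 library of clone 3, 5 with near-equal rows summed and 1 among members with under 50% shared words. The fit without the block discards the pairing by embryo. The median of members in induction with B12 was 0.013 with library totals and -0.067 with under 50% shared words. In the B12 average it was 0.23 with library totals, 0.18 with 10 counts in every library, 0.16 to 0.19 without a clone, 0.18 without the OSKM+B12 library of clone 3 and 0.23 with under 50% shared words. The fit to the groups compared gives no value for averages or the interaction. The causes of these changes were not tested, beyond fewer members or libraries where the alternative removes them.

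Hist1h2ao was called in 10 of 12 alternatives in the B12 average, Hist1h2ap in 9, Hist1h2ag in 8, Hist1h2ac and Hist1h2ah in 7 and Hist1h2ad in 6, all with positive values, and Hist1h1c in 9 of 12 in average induction, with negative ones. Values that changed sign belonged to genes that were not called. With library totals these were Hist1h2bg (0.028), Hist1h2bk (0.017) and Hist2h3b (0.045) in average induction and Hist1h2bc (0.018) in the B12 average. With 10 counts in every library Hist2h3b was 0.00058 in average induction, and without the replicate block -0.016 in the B12 average. Leaving out a clone or a library gave ranges across 0. These were -0.19 to 0.012 for Hist2h2aa2 in induction without B12 and -0.052 to 0.20 for Hist1h2br in induction with B12. In average induction they were -0.036 to 0.017 for Hist1h2bg, -0.088 to 0.078 for Hist1h2bk and -0.085 to 0.053 for Hist2h3b. With B12 in OSKM they were -0.20 to 0.057 for Hist1h2bj and -0.13 to 0.040 for Hist2h3c2, and with B12 in MEF -0.21 to 0.049 for Hist1h2bh. In the B12 average they were -0.024 to 0.012 for Hist1h2bc, -0.079 to 0.14 for Hist1h2be, -0.00125 to 0.11 for Hist1h2bg, -0.15 to 0.024 for Hist1h2bj, -0.065 to 0.022 for Hist1h2bq and -0.066 to 0.016 for Hist1h2br. They were -0.13 to 0.079 for Hist1h3d, -0.079 to 0.0048 for Hist2h2aa2, -0.094 to 0.17 for Hist2h3b and -0.027 to 0.092 for Hist2h3c2. The interaction of Hist2h2be ranged from -0.26 to 0.18. At these depths members under about 100 counts in all could not be tested, and the values describe poly(A)-selected RNA.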
